A study of Mus musculus with 6 samples.

Results

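Adrenergic and dopamine receptors are the cell-surface receptors through which noradrenaline, adrenaline and dopamine act, and their mRNA was compared between ribosome-bound RNA of S100a10-expressing cortical cells and RNA of whole mouse cortex. The set was defined as 10 receptor genes, Adra1a, Adra1b, Adra1d, Adra2a, Adra2c, Adrb1, Drd1, Drd2, Drd4 and Drd5, through array probe sets that carry a single gene symbol. Of these genes, 5 had such a probe set among the 18193 genes named on the array: Drd1, Drd2, Drd4, Adra1b and Adra2c, with 10 probe sets in all. The other 5 were not analysed here. Of the 5 genes measured, 3 reached the level minimum described below and were tested.

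Catecholamine receptors couple to heterotrimeric G proteins. The D1-class receptors, Drd1 among them, act through stimulatory G proteins and raise cyclic AMP, while the D2-class receptors Drd2 and Drd4 and the alpha-2 adrenergic receptors act through inhibitory G proteins and lower it. Alpha-1 receptors such as Adra1b act through Gq proteins and phospholipase C. In cortex these receptors are known for setting the response of pyramidal cells and interneurons to arousal and reward signals, and in the neighbouring striatum Drd1 and Drd2 mark the direct-pathway and indirect-pathway projection neurons.

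Each of the 6 samples came from cortex of untreated mice of the transgenic line ES691, in which S100a10 regulatory sequence on a bacterial artificial chromosome drives a tagged ribosomal protein, on a C57BL/6 background reached by 3 to 5 generations of backcrossing from FVB. The TRAP group holds 3 samples of RNA pulled down with the tagged ribosomes (translating ribosome affinity purification), and the unbound group holds 3 samples of whole cortex RNA from animals with the same transgene. The second group is called input in the sample titles and unbound in their descriptions; the latter name is used here. Animal age and the number of animals per sample were not given in the sources used here, so p-values cover the spread between these 6 samples only, part of which may be technical. According to the series text the transgene is active in some non-neuronal cells too, and its authors advise limiting analyses to probe sets tabulated in their paper. No such restriction was applied, and the TRAP values cover every labelled cell. In such bulk samples, fewer cells of a type and less RNA per cell cannot be told apart.

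S100a10 itself, the gene whose regulatory sequence drives the tag, was 5.86-fold higher in TRAP RNA (limma adjusted p = 8.3e-05, n = 3 per group). Array medians were 31.4 to 31.8 in TRAP RNA and 42.4 to 43.1 in unbound RNA, in units of GCRMA intensity. Among 9 tested markers of pyramidal neurons, which the series title gives as the labelled cells, 3 were higher and 4 lower in TRAP RNA. Their median log2 fold change was -0.54. Bcl11b was 4.14-fold and Camk2a 2.84-fold lower, while the 3 higher markers differed by 1.17-fold to 1.55-fold. Slc17a7, which encodes the vesicular glutamate transporter of pyramidal neurons, measured 341 ± 38.1 against 509 ± 144 (SD, n = 3; limma adjusted p = 0.092). Marker lists of other cells moved with the groups as well: 10 of 10 tested meningeal fibroblast markers and 5 of 6 mural cell markers were higher, whereas 9 of 9 oligodendrocyte, 8 of 8 microglial and 5 of 6 oligodendrocyte precursor markers were lower. Of 11 astrocyte markers 3 were higher and 6 lower, and of 4 endothelial markers 2 were higher and 2 lower. The part of these cells in the receptor values was not tested. Over all genes tested, 45.7% were called lower and 23.3% higher. Some microglial markers reached the level minimum through unbound RNA alone, and some meningeal fibroblast markers through TRAP RNA alone. The marker counts are therefore descriptions only.

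The 3 tested receptors were all lower in TRAP RNA and none was higher. A gene was tested if the mean intensity of its probe set reached 50 in at least 1 group, and called at a limma adjusted p below 0.05. In the same fit 45.7% of all 12070 genes were called lower and 23.3% higher. That split turned with the scaling of the arrays, to 22.2% lower and 47.6% higher after centring on the median of all probe sets, and to 33.0% and 34.1% after quantile normalisation, while the 3 receptors stayed called lower under both. Drd2 reached the minimum through the unbound group alone, and with 3 genes the count is a description only. The differences were unequal in size, at 6.49-fold for Drd1, 2.92-fold for Drd2 and 1.64-fold for Adra2c. In a limma test against a 2-fold change, which called 6.56% of all genes lower, Drd1 and Drd2 passed and Adra2c did not. Each of the 5 kept receptor probe sets held exactly the same value on at least 2 arrays of a group, as did 53.6% of all kept probe sets, so the spread behind these p-values may be too narrow.

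Drd1, the D1 dopamine receptor, had the largest difference of the 3. Its probe set 1455629_at read 126, 158 and 126 on the TRAP arrays and 892, 945 and 808 on the unbound arrays. The highest TRAP array thus stood far below the lowest unbound array. The means were 136 ± 18.7 in TRAP RNA and 881 ± 68.9 in unbound RNA (SD, n = 3), a log2 fold change of -2.70 (SE 0.12, limma adjusted p = 3.3e-05; adjusted p = 3.5e-04 against a 2-fold change). Only 120 of the 12070 genes, 0.994%, had a lower log2 fold change than Drd1.

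A second Drd1 probe set, 1456051_at, gave nearly the same picture. It read 130, 137 and 137 on the TRAP arrays against 849, 873 and 802 on the unbound arrays, 6.26-fold lower in TRAP RNA. Tested on its own among 22591 kept probe sets, of which 47.7% were called lower, it had a log2 fold change of -2.65 (SE 0.04, limma adjusted p = 1.4e-06). Both probe sets therefore gave Drd1 a difference in a narrow range, from 6.26-fold to 6.49-fold. On all 3 TRAP arrays both probe sets also stayed over the level minimum, which is a filter and not a test of detection. Whether this remaining Drd1 signal comes from labelled cells was not tested.

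Drd2, the D2 dopamine receptor and the autoreceptor of dopamine neurons, was measured by 1 probe set, 1418950_at. It read 35.9, 39.3 and 35.9 on the TRAP arrays and 124, 109 and 92.4 on the unbound arrays. The groups did not overlap, and all 3 TRAP values lay under the level minimum of 50, so its fold is set by readings near background. The means were 37.0 ± 1.97 and 109 ± 16.0 (SD, n = 3), a log2 fold change of -1.54 (SE 0.12, limma adjusted p = 2.4e-04). With values under 50 raised to 50 the difference was 2.16-fold.

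The size of the Drd2 difference was less secure than its direction. Against a 2-fold change its limma adjusted p was 0.029, and with the replicate number as a block it was 0.055. It also lost that call after each rescaling of the arrays and without any of 5 of the 6 arrays (adjusted p from 0.052 to 0.11), unbound replicate 3 being the exception (adjusted p = 0.012). The call of Drd2 as lower held in all 15 alternatives that tested it.

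Drd4, a D2-class receptor, was close to background in both groups. Probe set 1422830_s_at gave the same value, 7.13, on all 3 TRAP arrays, and 15.0, 15.0 and 14.7 on the unbound arrays. The other, 1422829_at, gave 3.60 on every TRAP array and 6.23 on every unbound array. All TRAP readings were below all unbound readings, a pattern shared by 49.6% of the genes tested, but neither probe set reached the level minimum and Drd4 was not tested.

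Adra2c, the alpha-2C adrenergic receptor, is an inhibitory receptor that limits noradrenaline release. Its main probe set, 1435296_at, read 81.4, 84.1 and 84.1 on the TRAP arrays and 137 on each of the 3 unbound arrays. The groups did not overlap, and the mean fell from 137 ± 0 to 83.2 ± 1.56 (SD, n = 3), a log2 fold change of -0.72 (SE 0.03, limma adjusted p = 2.2e-05). The 3 unbound readings were identical to the last digit, so the spread of that group is not a measure of error.

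The other Adra2c probe sets gave smaller differences. Probe set 1422335_at read 74.5, 80.7 and 77.2 on the TRAP arrays against 94.4, 94.4 and 99.7, a 1.24-fold difference (log2 fold change -0.31, SE 0.04, limma adjusted p = 0.0022 among all kept probe sets). The groups did not overlap here either. Probe set 1457328_at lay at 16.1 to 16.3 against 17.6, and 1439762_x_at at 4.98 to 5.20 against 5.00, both under the level minimum. So the 2 probe sets above the minimum ranged from 1.24-fold to 1.64-fold lower, a small change beside that of Drd1.

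Adra1b, the alpha-1B adrenergic receptor, was the only measured member whose mean was not lower in TRAP RNA. Its probe set 1422183_a_at read 13.2, 17.1 and 17.1 on the TRAP arrays and 13.6 on each unbound array. The groups overlapped, all readings lay under the level minimum, and the gene was not tested.

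**Figure D1:**
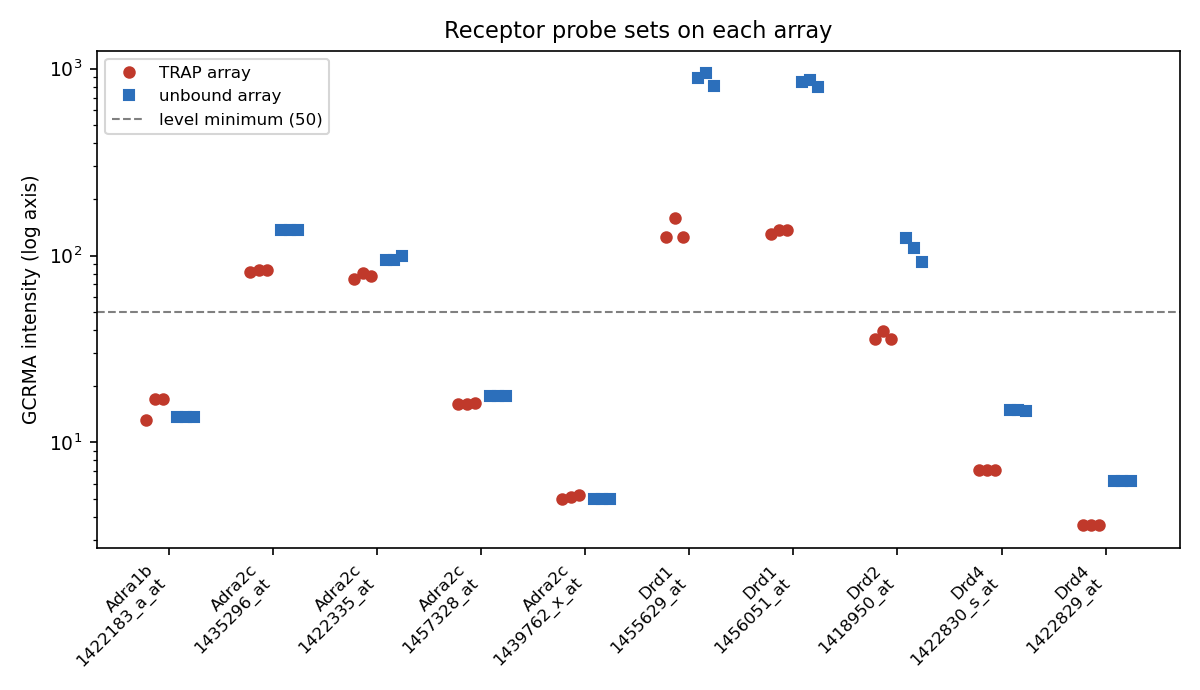
GCRMA intensity (log axis) of the 10 receptor probe sets, with 1 point per array, red circles for TRAP and blue squares for unbound; the dashed line is the level minimum of 50. Both Drd1 probe sets stand at 802 to 945 in unbound RNA and 126 to 158 in TRAP RNA, Drd2 crosses the line, and the probe sets of Drd4 and Adra1b stay below it.

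For these 3 receptors all TRAP readings lay below all unbound readings, as for 49.6% of the genes tested. Any pairing therefore gives the same direction, and same-numbered samples show only the spread in size. Drd1 was 7.11-fold, 5.98-fold and 6.44-fold lower in TRAP RNA for replicates 1, 2 and 3. Drd2 was 3.47-fold, 2.78-fold and 2.58-fold lower. Adra2c was 1.68-fold, 1.63-fold and 1.63-fold lower. Within each replicate the order was Drd1, then Drd2, then Adra2c.

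Much of the array leaned toward lower values in TRAP RNA, with a median log2 fold change of -0.21 over all genes tested. Relative to that median, the changes were -2.49 for Drd1, -1.34 for Drd2 and -0.51 for Adra2c. Of all genes tested, 5.40% had a lower log2 fold change than Drd2 and 22.1% a lower one than Adra2c. Adra2c thus sat in the broad lower flank of the distribution, and Drd1 in its far tail.

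**Figure D2:**
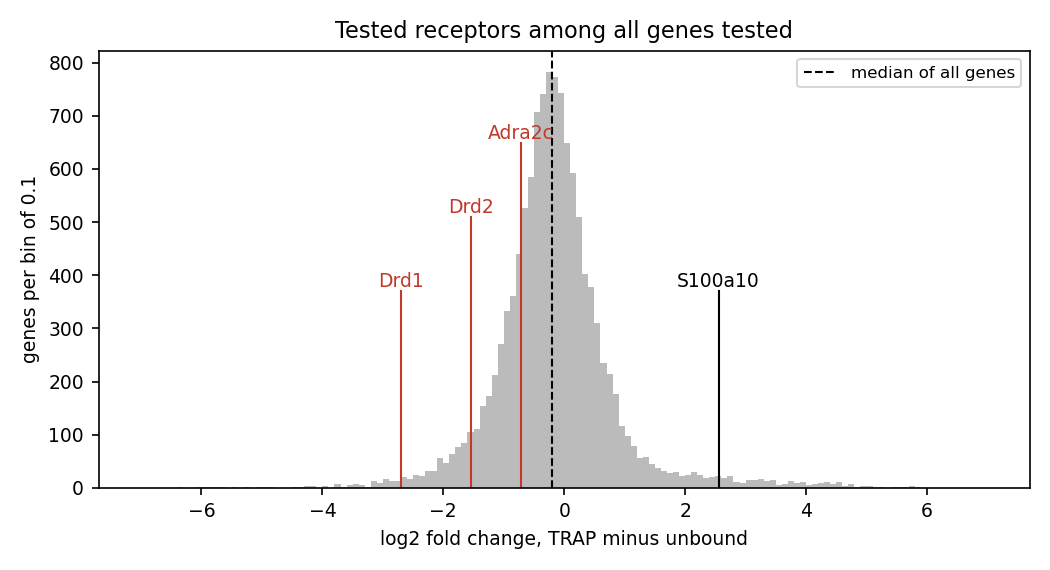
Histogram of the log2 fold change (TRAP minus unbound) of the 12070 genes tested, in bins of 0.1, with lines at Drd1 (-2.70), Drd2 (-1.54), Adra2c (-0.72) and the driver gene S100a10 (2.55); line height carries no value. The dashed line is the median of all genes (-0.21), and all 3 receptors lie to its left.

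Ratios within an array are not moved by centring, and they compare the sizes of the receptor differences directly. Those with Drd2 are imprecise, since all 3 Drd2 readings in TRAP RNA lay under the level minimum. The log2 ratio of Drd1 to Drd2 was 1.87 ± 0.12 on the TRAP arrays and 3.03 ± 0.16 on the unbound arrays (SD, n = 3), a shift of -1.15, or 2.23-fold. The ratio of Adra2c to Drd1 shifted by 1.98 (3.95-fold) and that of Adra2c to Drd2 by 0.83 (1.77-fold). In each of these 3 comparisons the TRAP and unbound arrays did not overlap, with an exact two-sided permutation p = 0.1, which is the smallest that 3 samples against 3 can give and cannot pass the threshold of 0.05, and 0.1 after adjustment over the 3. With other kept probe sets the shift of Drd1 to Drd2 was -1.10, that of Adra2c to Drd2 1.23, and that of Adra2c to Drd1 between 1.93 and 2.39. With values under 50 raised to 50, the shift of Drd1 to Drd2 was -1.59 (3.01-fold) and that of Adra2c to Drd2 0.39 (1.31-fold). After quantile normalisation these 2 shifts were -1.26 and 0.76, and that of Adra2c to Drd1 was 2.01. These ratios and their alternatives were chosen after the values were seen.

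The sequence just before the annotated starts is shown for the 3 tested receptor genes, all called lower, as were 45.7% of all genes. The windows of Drd4 and Adra1b, which were not tested, are not printed. Each line is 250 bases ending at the base before a RefSeq start in GRCm38.p6, printed 5′ to 3′ on the strand of the gene, with GC boxes (GGGCGG or its reverse complement CCGCCC) in capitals. Drd1 has 2 annotated starts.
Drd1, distal start, chr13:54055659-54055908, minus strand: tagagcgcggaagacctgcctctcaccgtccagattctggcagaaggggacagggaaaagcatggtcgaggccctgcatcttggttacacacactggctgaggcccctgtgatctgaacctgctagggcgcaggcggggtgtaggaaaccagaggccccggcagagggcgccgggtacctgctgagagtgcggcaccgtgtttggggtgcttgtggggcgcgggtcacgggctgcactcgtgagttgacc
Drd1, proximal start, chr13:54054781-54055030, minus strand: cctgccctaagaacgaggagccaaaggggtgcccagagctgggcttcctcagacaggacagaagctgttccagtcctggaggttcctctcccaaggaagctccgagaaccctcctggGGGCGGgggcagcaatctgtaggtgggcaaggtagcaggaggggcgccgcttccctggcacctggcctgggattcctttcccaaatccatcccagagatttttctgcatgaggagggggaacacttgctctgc
Drd2, chr9:49340153-49340402, plus strand: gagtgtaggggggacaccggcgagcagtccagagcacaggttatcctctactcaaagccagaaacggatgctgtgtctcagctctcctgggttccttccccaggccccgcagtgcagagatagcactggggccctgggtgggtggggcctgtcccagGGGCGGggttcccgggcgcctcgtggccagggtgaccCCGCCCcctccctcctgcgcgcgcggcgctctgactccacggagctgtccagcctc
Adra2c, chr5:35278316-35278565, plus strand: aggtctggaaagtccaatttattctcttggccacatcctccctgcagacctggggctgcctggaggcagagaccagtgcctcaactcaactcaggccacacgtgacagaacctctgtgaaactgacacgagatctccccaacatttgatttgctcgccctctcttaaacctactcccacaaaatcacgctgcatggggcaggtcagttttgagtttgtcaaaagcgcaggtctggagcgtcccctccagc
The Drd2 window is 68.8% G or C and holds 2 GC boxes, and 89.0% of 32851 such windows in the RefSeq table have a lower G and C content. The Drd1 windows are 64.0% and 60.8% G or C, with 0 and 1 GC box, and the Adra2c window is 53.6% with 0. Of the windows not printed, that of Drd4 holds 3 GC boxes, and those of Adra1b hold 0 and 1. Of all windows 32.7% hold a GC box on either strand, and the median G and C content is 52.4%. A TATA box (TATAAA or TTTATA), found in 12.4% of windows, and the core of the cyclic AMP response element (TGACG or CGTCA), found in 17.8%, do not occur in the 4 printed windows. No binding was measured here.

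Drd1 and Drd2 were set beside markers of striatal projection neurons and of cortical interneurons, which also carry dopamine receptors. The median log2 fold change of 7 tested striatal markers was -1.87, with 6 called lower and 0 higher. Pdyn, the dynorphin precursor of direct-pathway neurons, was 7.52-fold lower (1.77-fold with values under 50 raised to 50) and Tac1, the substance P precursor, 6.33-fold lower. The summed intensity of the 8 striatal markers on the array was 3576 to 5369 in TRAP RNA and 16352 to 17080 in unbound RNA, and 0 of their values were at zero. Most of the unbound sum came from Tac1 (mean 5867), Pde10a (5735) and Penk (4033). Whether these genes stand for striatal neurons in samples of cortex was not tested. The Drd1 difference lay within the range of these markers. That of Drd2 lay near Pde10a (2.69-fold lower) and Gpr6 (2.51-fold lower), with Penk further off (3.66-fold lower). Such sizes were not particular to striatal markers. List medians were -3.54 for oligodendrocytes, -2.25 for their precursors and -2.12 for microglia, against 2.55 for mural cells and 5.15 for meningeal fibroblasts. Some microglial and meningeal fibroblast markers in these medians reached the level minimum through 1 group alone. Isl1, a transcription factor of direct-pathway neurons, measured 85.2 ± 38.0 against 95.4 ± 8.72 (SD, n = 3; limma adjusted p = 0.54), and Chrm4 lay under the level minimum.

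Interneuron markers, 11 in number, had a median log2 fold change of -1.58, and 8 were called lower and 0 higher. Pvalb was 6.89-fold and Vip 5.15-fold lower, while Sst (log2 fold change 0.23), Npy (0.19) and Cck (-0.03) were not called. Their summed intensity was 23366 to 28928 in TRAP RNA and 45361 to 49166 in unbound RNA. Whether the lower Drd1 and Drd2 readings follow the content of striatal neurons or interneurons was not tested.

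**Figure D3:**
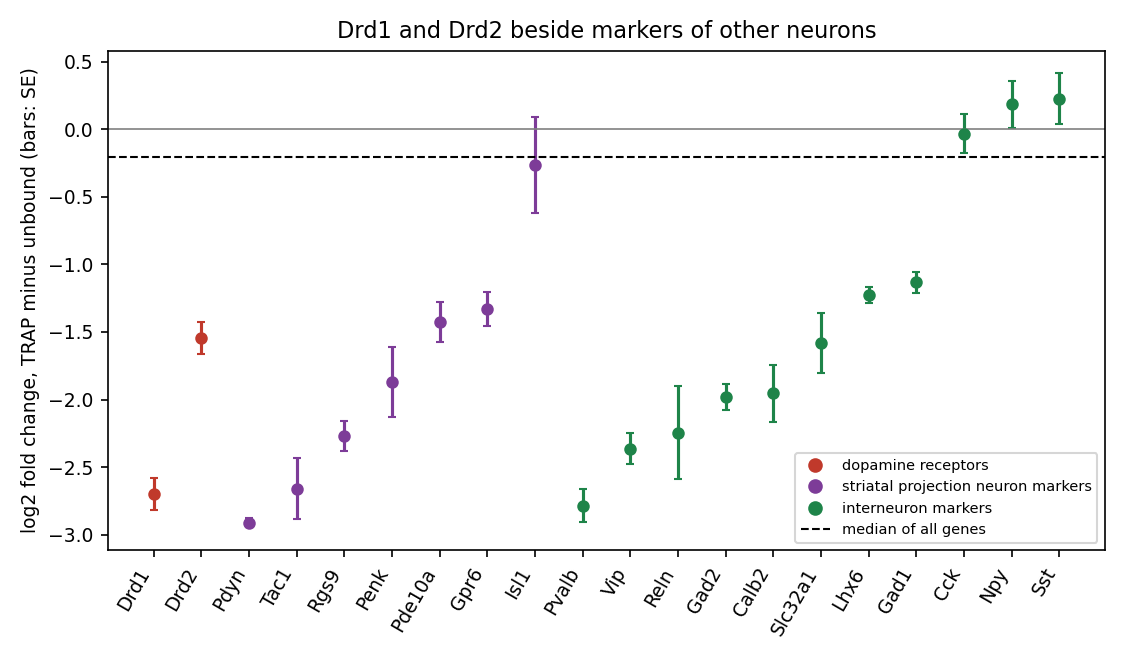
Log2 fold change (TRAP minus unbound, points) with its SE (bars) for Drd1 and Drd2 in red, 7 striatal projection neuron markers in purple and 11 interneuron markers in green; the dashed line is the median of all genes. Drd1 (-2.70) lies between Tac1 (-2.66) and Pvalb (-2.78), and Drd2 (-1.54) lies close to the interneuron marker Slc32a1 (-1.58).

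Genes acting around the receptors were followed through 8 lists, of which the first holds the receptors outside the set. Over the lists together, 75 of 98 genes were tested, 14 were higher and 35 lower in TRAP RNA. The 46.7% called lower and the 18.7% called higher are close to the 45.7% and 23.3% of all genes, and the median of -0.21 equals theirs to 2 decimals. The split depended on scaling. It was 25 higher and 26 lower after centring arrays on the median of the tested genes, where 34.0% of all genes were higher and 33.2% lower. It was 23 and 32 after quantile normalisation and 33 and 15 after centring on the median of all probe sets, against the shares of all genes given above for these scalings. The receptors outside the set with a probe set here came down to Drd3, the D3 dopamine receptor, which lay at 4.98 to 5.03 in TRAP RNA and 5.10 in unbound RNA, under the level minimum.

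Of 7 tested genes for catecholamine synthesis and storage, 0 were higher and 3 lower (median -0.03). The number higher was 4 after centring on all probe sets, 3 after quantile normalisation or centring on the tested genes, and 1 without TRAP replicate 3 or without unbound replicate 3. Ddc, which makes dopamine from L-DOPA, was 7.53-fold lower at 34.3 ± 5.17 against 257 ± 24.0 (SD, n = 3; 5.13-fold with values under 50 raised to 50). Pnmt, which makes adrenaline, was 2.15-fold lower, and Qdpr, which recycles the cofactor of tyrosine hydroxylase, was 1.25-fold lower, a direction that reversed after centring on all probe sets. Th, tyrosine hydroxylase, measured 115 ± 0 against 89.3 ± 36.9 (limma adjusted p = 0.22). The vesicular transporter gene Slc18a2 and the dopamine transporter gene Slc6a3 lay under the level minimum.

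Of 7 genes for clearing catecholamines, 4 were higher and 2 lower (median 1.04). Slc22a2, an organic cation transporter, was 20.4-fold higher (4.62-fold with values under 50 raised to 50), the sulfotransferase gene Sult1a1 19.6-fold and the aldehyde dehydrogenase gene Aldh1a1 6.17-fold higher. Maob, monoamine oxidase B, was 2.13-fold lower and the monoamine transporter gene Slc29a4 1.99-fold lower. In TRAP RNA 23.3% of all genes were higher, among them the tested meningeal fibroblast markers and most mural cell markers described above. The summed intensity of the meningeal fibroblast markers was 57238 to 61420 in TRAP RNA and 6770 to 10140 in unbound RNA. The part of any of these cells in the clearance genes was not tested.

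Of the G protein alpha subunits, 2 of 9 were higher and 4 lower (median 0.04), or 5 and 1 after centring on all probe sets and 5 and 3 after centring on the tested genes. Gnal, the stimulatory subunit that couples D1 receptors in striatum, was 3.04-fold lower at 832 ± 78.9 against 2533 ± 278 (SD, n = 3; limma adjusted p = 1.5e-04), the largest difference of the list. Gnas, the general stimulatory subunit, was 1.08-fold higher, a direction that reversed when all kept probe sets were averaged, and Gnai2, an inhibitory subunit, was 1.34-fold higher. Gnaq, the subunit used by alpha-1 receptors, was 1.44-fold lower and Gnao1 1.30-fold lower, the latter reversing after centring on all probe sets. The cyclic AMP arm had 1 of 23 higher and 12 lower (median -0.29), a balance that turned to 7 and 4 after centring on all probe sets and was 2 and 7 after centring on the tested genes. Its largest differences were those of Pde10a, a striatal phosphodiesterase (2.69-fold lower), the adenylyl cyclase gene Adcy9 (2.29-fold lower) and Ppp1r1b, which encodes the dopamine-regulated phosphatase inhibitor DARPP-32 (2.08-fold lower). Adcy7 was 1.52-fold higher.

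The phospholipase C arm had 2 of 9 higher and 5 lower (median -0.39), or 3 and 3 after centring on all probe sets. Plcb3 was 3.58-fold higher (2.85-fold with values under 50 raised to 50) and Prkcd 2.14-fold higher, and Plcb4, Plcb2 and Prkca were 1.92-fold, 1.74-fold and 1.66-fold lower, Plcb2 by 1.21-fold with the raised values. The SD was 0 in both groups for Prkcd and in unbound RNA for Plcb3, which is not a measure of error. Among probe sets without repeated values, 0 of 5 tested genes of this arm were higher and 2 lower. Among genes that end receptor signalling, 1 of 10 was higher and 6 lower (median -0.58), or 2 and 6 with the replicate number as a block and 4 and 4 after centring on all probe sets. Rgs9, a regulator of D2 signalling in striatum, was 4.82-fold lower, the receptor kinase gene Grk3 3.32-fold, Rgs14 1.60-fold lower, and Arrb2, a beta-arrestin, 1.22-fold higher. Of the receptor-binding proteins 4 of 10 were higher and 3 lower (median 0.24). Without any one unbound replicate 2 were higher, and after centring on all probe sets 6 were higher and 0 lower. Flna, which binds D2 and D3 receptors, was 2.29-fold higher, Gipc1 1.43-fold and Ppp1ca 1.20-fold higher, and Ncs1, Gprasp1 and Dlg4 were 1.50-fold, 1.32-fold and 1.30-fold lower, of which Gprasp1 and Dlg4 reversed after centring on all probe sets. Ppp1ca lost its call without either of TRAP replicates 1 and 3 or any one unbound replicate, and among probe sets without repeated values. Other genes named in these lists lost theirs too. Centring on all probe sets removed the calls of Maob, Gnaq and Ncs1, and centring on the tested genes those of Qdpr, Gprasp1 and Dlg4. Quantile normalisation removed those of Gnas and Dlg4, and averaging probe sets those of Arrb2, Gprasp1 and Dlg4.

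**Figure D4:**
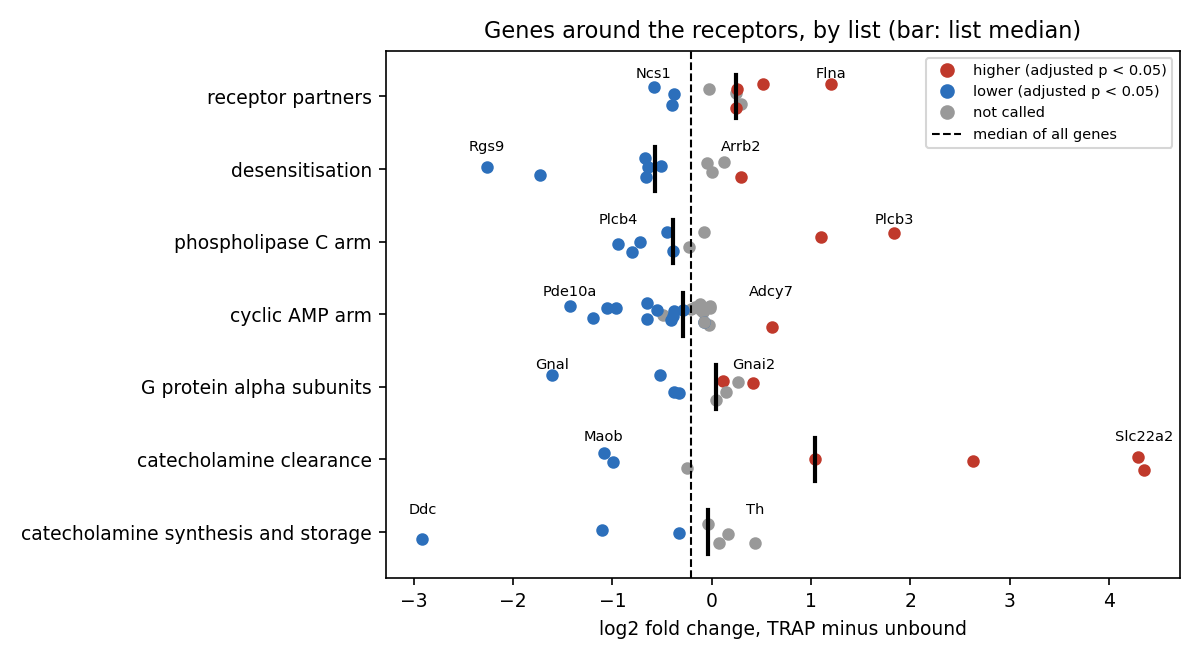
Log2 fold change (TRAP minus unbound) of each tested gene in the 7 lists around the receptors, red where called higher, blue where called lower and grey where not called, with the extremes of each list named; vertical position within a list carries no value. Black bars mark list medians and the dashed line the median of all genes (-0.21); the clearance list reaches above 4 and the synthesis list down to Ddc at -2.91.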

How the data were processed

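RNA from 3 TRAP and 3 unbound samples was hybridised to Affymetrix arrays with a biotin label. Per the labels' protocols, 15 ng of total RNA was amplified with a 2-cycle kit, a step biased toward the 3′ end of transcripts, so where a probe set lies matters. The authors deposited GCRMA intensities in linear units, per the submitters' processing notes. The GCRMA version, and whether all arrays were processed in 1 run, are not given in the sources used here. Array medians differed by group, as given above. If the groups were processed apart, that step could not be told apart from the group difference. Of 45101 probe sets, 64 controls were dropped and 34945 of the rest had 1 gene symbol; Entrez IDs linked 34754 to RefSeq, changing 0 symbols.

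The groups were compared on log2 intensity by limma 3.58.1 under R 4.3.3 (lmFit, then eBayes; no covariates; two-sided; Benjamini-Hochberg over all genes; threshold 0.05). A probe set was kept where a group mean reached 50 (22591 kept), and each gene was represented by its kept probe set with the highest mean, giving 12070 genes. A 2-fold change was tested with limma's treat. Other filters, scalings, probe set rules, a block for replicate number and leaving out each array were tried. Within-group deviations of same-numbered TRAP and unbound samples correlated across genes at 0.50, 0.46 and 0.37, so the numbers were taken to pair the samples. The main fit left this pairing out. With the replicate number as a block, the limma adjusted p was 5.9e-04 for Drd1, 0.0022 for Drd2 and 0.0011 for Adra2c. The fit was also run on simulated data with independent noise and without repeated values or pairing. That run cannot show how the p-values behave in data with these features. The receptors and lists were chosen with earlier results of these data known. Named were S100a10 and every measured receptor. From each pathway list up to 3 called genes per direction were named, and up to 2 called genes of a marker list set beside a receptor. List genes named as not called, at a low level or close to a receptor, and Slc17a7, Penk, Bcl11b and Camk2a, were chosen after their values were seen. Promoter windows come from RefSeq, GRCm38.p6.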

Additional observations from a re-analysis of the deposited data

How the results depend on the processing

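Drd1, Drd2 and Adra2c kept their direction and their call as lower in TRAP RNA in every alternative that tested them (16, 15 and 16 alternatives), with log2 fold changes of -2.81 to -2.26, -1.66 to -1.11 and -0.73 to -0.28. With no filter, Drd4 was also called lower, on a probe set near background with no spread in TRAP RNA. That made 4 of 5 receptors, beside 45.9% of all 18193 genes, and Adra1b was not called (limma adjusted p = 0.16). The receptors past a 2-fold change numbered 2, and 3 of 5 with no filter. They numbered 1 (Drd1) after either centring, after quantile normalisation, with values under 50 raised to 50 and with the replicate block. The number was also 1 when both group means had to reach 50, which left Drd2 untested. Leaving out single arrays gave 1 to 2. The replicate block changed no other receptor call. Probe sets without repeated values gave no receptor result, since all 5 kept receptor probe sets hold such values. In that setting 6 pathway genes of 46 tested were higher and 20 lower, beside 19.7% and 39.2% of the 6975 genes tested there. Pathway genes called higher numbered 33 after centring on all probe sets, 25 after centring on the tested genes (an alternative chosen after seeing the data) and 23 after quantile normalisation, and those called lower numbered 15 after centring on all probe sets. That centring moved the median of all genes to 0.23 and reversed Qdpr (0.11), Gnao1 (0.059), Gprasp1 (0.036) and Dlg4 (0.060); averaging probe sets reversed Gnas (-0.17). With 3 arrays per group precision is limited by their number, and readings under 50 have no firm fold.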
